A study of Rattus norvegicus with 7 samples.

Results

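Protamines and transition proteins are the small basic proteins of the condensing spermatid nucleus. The transition proteins TNP1 and TNP2 take the place of most histones as the spermatid elongates. Protamines then replace the transition proteins and pack the sperm DNA. Their genes are transcribed in round spermatids, and the mRNAs are stored bound to protein, untranslated, until the nucleus elongates, so that in whole testis these mRNAs are a readout of the postmeiotic germ cells. Each of Prm1, Prm2, Tnp1 and Tnp2 had 1 probe set on the array that the platform annotation assigns to that gene alone, and 0 probe sets named a member together with another gene. The members are therefore 4 genes of 14217 with a probe set of their own, read by 4 probe sets of the 31042 that are not controls, and all 4 passed the filter on low values that kept 20857 probe sets.

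The series measured whole testis of adult male Sprague-Dawley rats, with no genotype, strain variant or vehicle treatment named in the labels. The 3 untreated animals serve as time 0, and the cadmium-treated animals received 1 intraperitoneal injection of cadmium chloride at 3 mg per kg body weight with testes taken after 8 h from 2 of them and after 20 h from the other 2. The labels' treatment text repeats the cadmium injection for all 7 samples, including the 3 whose titles call them untreated; the groups here follow the titles. Total RNA of each was hybridized to an Affymetrix Rat230_2 array, and the values are MAS 5.0 signals, a brightness per probe set on a linear scale.

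The hybridization date in the instrument files splits the arrays into 3 days. Day 1 holds untreated replicate 1 and 20 h replicate 1, day 2 holds untreated replicate 2 alone, and day 3 holds both 8 h arrays, 20 h replicate 2 and untreated replicate 3. Both 8 h arrays thus share day 3 with 1 untreated array only. The first principal component of all kept probe sets separated day 3 from the arrays of days 1 and 2 and took 39.5% of the variance. Untreated replicate 2 was stained at 25 °C for 600 s and the other arrays at 35 °C for 300 s, and its instrument file names mouse as the sample type. Defining markers of spermatids were present on every array, with Akap4 between 8969 and 13049 and Odf1 between 12464 and 19624.

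The promoter sequences are shown because the activator CREM is known to drive these genes in round spermatids. It binds cAMP response elements of the form TGACGTCA and variants of it. Any part of these promoters in the differences between arrays described below was not tested. RefSeq (GRCr8) gave entries for Prm1, Tnp1 and Tnp2. The 250 bases before the transcription start are printed 5′ to 3′ on the gene's strand, with matches to TGACNTCA on either strand and to TATAA on the gene's strand in capitals. Prm1 lies at chr10:5378490-5378739 on the plus strand, Tnp2 at chr10:5386485-5386734 on the plus strand and Tnp1 at chr9:82044279-82044528 on the minus strand.
Prm1: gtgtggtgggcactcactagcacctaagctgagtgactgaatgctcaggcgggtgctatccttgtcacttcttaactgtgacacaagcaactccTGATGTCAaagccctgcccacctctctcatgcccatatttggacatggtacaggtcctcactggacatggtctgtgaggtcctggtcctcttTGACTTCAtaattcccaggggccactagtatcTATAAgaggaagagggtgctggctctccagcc
Tnp1: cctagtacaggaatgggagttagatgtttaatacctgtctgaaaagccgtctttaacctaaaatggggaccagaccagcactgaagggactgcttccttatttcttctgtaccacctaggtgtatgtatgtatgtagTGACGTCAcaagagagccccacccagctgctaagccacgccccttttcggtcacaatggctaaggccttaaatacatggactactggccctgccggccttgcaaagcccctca
Tnp2: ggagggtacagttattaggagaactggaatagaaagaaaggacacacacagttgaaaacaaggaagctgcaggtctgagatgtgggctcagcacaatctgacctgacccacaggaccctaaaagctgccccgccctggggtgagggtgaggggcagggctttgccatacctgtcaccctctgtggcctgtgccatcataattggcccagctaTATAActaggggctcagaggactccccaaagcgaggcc

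The Prm1 stretch held TGACTTCA 64 to 57 bases before the start, TGATGTCA, a match on the opposite strand, at 156 to 149 bases, and TATAA at 32 to 28 bases. The Tnp1 stretch held the full palindrome TGACGTCA at 113 to 106 bases and no TATAA. The Tnp2 stretch held TATAA at 38 to 34 bases and no TGACNTCA. Of 33469 RefSeq promoters of 300 bases, searched from 250 bases before to 50 after the start, 10.2% held TGACNTCA, 1.83% held TGACGTCA and 18.4% held TATAA. Every match to TGACGTCA is also a match to TGACNTCA. These letter matches describe the sequences and were not tested as binding sites. In RefSeq's order on chromosome 10 the genes run Prm1, Prm2, Prm3, the long noncoding LOC120095020 and Tnp2, a cluster of neighbours, while Tnp1 lies on chromosome 9.

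The 4 signals were among the brightest on the arrays. Prm1, the protamine found in the sperm of all mammals, was the brightest of the 31042 probe sets on each of the 7 arrays. Tnp1, the more abundant transition protein, ranked 3 to 8, Tnp2 ranked 18 to 26, and Prm2, which is made as a precursor and cleaved on the DNA, ranked 44 to 80. These ranks give the place on the array's scale and not the order of mRNA amounts, since probe sets differ in brightness per molecule.

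Prm1 gave 20531, 16767 and 28324 on untreated replicates 1 to 3. It gave 28756 and 27238 at 8 h and 18075 and 28284 at 20 h. The 4 arrays of day 3 lay together at the top and the 3 arrays of days 1 and 2 below them, so that untreated replicate 3 stood in the upper set with 3 treated arrays, and 20 h replicate 1 in the lower set with the other untreated arrays. The means were 21874 ± 5895 (SD, n = 3) for untreated testis, 27997 ± 1074 (SD, n = 2) for the 8 h group and 23179 ± 7218 (SD, n = 2) for the 20 h group.

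Prm2 gave 9802, 8416 and 12173 on the untreated arrays, 11143 and 11107.5 at 8 h, and 9719.8 and 11993 at 20 h. Its highest array was untreated, and both 8 h arrays lay inside the untreated range. Untreated testis averaged 10130.3 ± 1899.6 (SD, n = 3), the 8 h group 11125 ± 24.8 (SD, n = 2) and the 20 h group 10856.5 ± 1607.5 (SD, n = 2).

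Tnp1 gave 14539, 12999 and 20923 on the untreated arrays, 21056 and 20166 at 8 h, and 14392 and 20735 at 20 h. As with Prm1, the day 3 arrays formed the upper set whatever their treatment. The means were 16154 ± 4202 (SD, n = 3), 20611 ± 629.5 (SD, n = 2) and 17563.5 ± 4485 (SD, n = 2) in the untreated, 8 h and 20 h groups.

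Tnp2, which is less conserved between species than Tnp1, gave 11962.5, 11369 and 17915 on the untreated arrays. It gave 15839 and 16516 at 8 h and 12114 and 17774 at 20 h. The highest of the 7 values was again untreated replicate 3, so neither treated group stood outside the untreated range. Its means were 13749 ± 3619.9 (SD, n = 3), 16177 ± 479 (SD, n = 2) and 14944 ± 4003 (SD, n = 2).

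**Figure D1:**
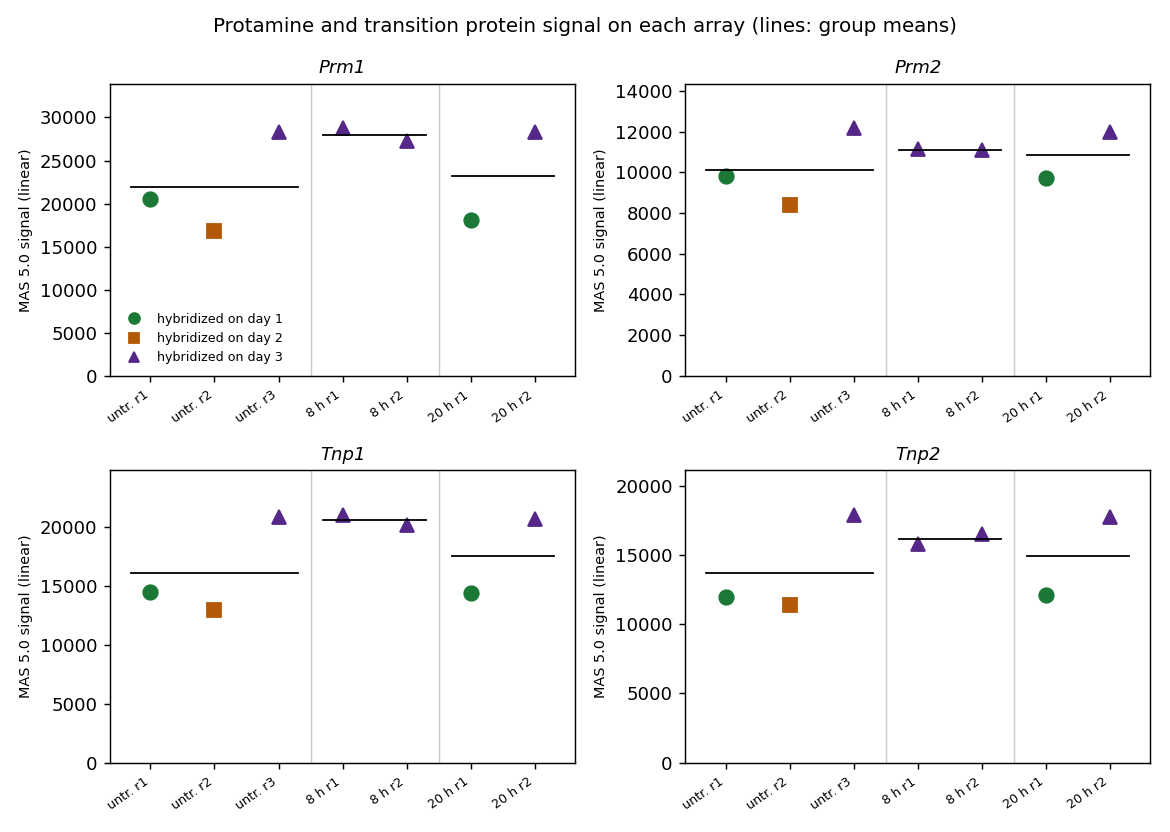
Signal of each gene on each of the 7 arrays (linear scale from 0), with the symbol and colour giving the hybridization day and black lines the group means. In all 4 panels the 4 day 3 arrays lie above the 3 arrays of days 1 and 2, and the untreated array of day 3 lies among the treated arrays of that day for Prm1 and Tnp1 and above them for Prm2 and Tnp2.

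The 4 genes were higher on the arrays of day 3 than on those of day 1, by 1.24-fold to 1.48-fold. In limma, with the 3 groups in the fit, the log2 difference of day 3 minus day 1 was 0.55 ± 0.06 (SE) for Prm1 (adjusted p = 0.00175), a 1.47-fold difference. It was 0.31 ± 0.06 for Prm2 (1.24-fold, adjusted p = 0.0159), 0.53 ± 0.05 for Tnp1 (1.44-fold, adjusted p = 0.00173) and 0.57 ± 0.06 for Tnp2 (1.48-fold, adjusted p = 0.00162), all from the same limma fit with Benjamini-Hochberg adjustment. All 4 were called higher on day 3, where 4.08% of the 20857 probe sets were called higher and 9.52% were called in either direction. Likewise, all 4 had every day 3 array above the other 3 arrays, which held for 10.6% of the probe sets. This day term was added after the data had been seen.

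Both groups that span several days showed the difference on their own. Untreated replicate 3 was above the mean of untreated replicates 1 and 2 by 0.61 for Prm1, 0.42 for Prm2, 0.61 for Tnp1 and 0.62 for Tnp2 on the log2 scale. At 20 h, replicate 2 (day 3) exceeded replicate 1 (day 1) by 0.65, 0.30, 0.53 and 0.55 in the same order. Day 2 lay below day 1 in untreated testis, with log2 differences of -0.29, -0.22, -0.16 and -0.07. Within day 3 the signals were tight: the coefficient of variation over the 4 day 3 arrays, which span all 3 groups, was 2.29% for Prm1, 4.81% for Prm2, 1.89% for Tnp1 and 5.90% for Tnp2, against 22.2%, 12.8%, 20.5% and 19.4% over all 7 arrays. On day 1, 20 h replicate 1 differed from untreated replicate 1 by -12.0% for Prm1, -0.84% for Prm2, -1.01% for Tnp1 and 1.26% for Tnp2.

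The difference between days was shared by other bright probe sets and rose with brightness. Of the 60 probe sets at least as bright on average as Prm2, the 4 genes included, 60 were higher on day 3 in the untreated group and 60 in the 20 h group. The day term called 58 of the 60, against 9.52% of all 20857 probe sets in either direction. The median log2 day difference of the 60 was 0.49 in untreated testis and 0.51 at 20 h. Over all 20857 probe sets it was -0.11 and -0.06. Among probe sets with a mean signal of 8000 to 12000 the medians were 0.42 and 0.42, and above 12000 they were 0.51 and 0.54. Below 100 the medians were -0.23 and -0.19, and 32.9% and 37.1% of the probe sets were higher on day 3, so most dim probe sets differed in the opposite direction. The deposited signals share 1 scale, with a mean of 249.1 to 249.8 on every array after 2% was trimmed at each end. Dim and bright differences are therefore not independent, and the part of this scaling was not tested. The 5 genes nearest in brightness to each member had medians of 0.51 beside Prm1, 0.36 beside Prm2, 0.51 beside Tnp1 and 0.45 beside Tnp2 in untreated testis. Prm1 and Tnp1 shared most of these genes, so their values are not separate. The genes beside Prm1 were all dimmer than it, with mean signals of 16941.5 to 19244 against 23996.

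**Figure D2:**
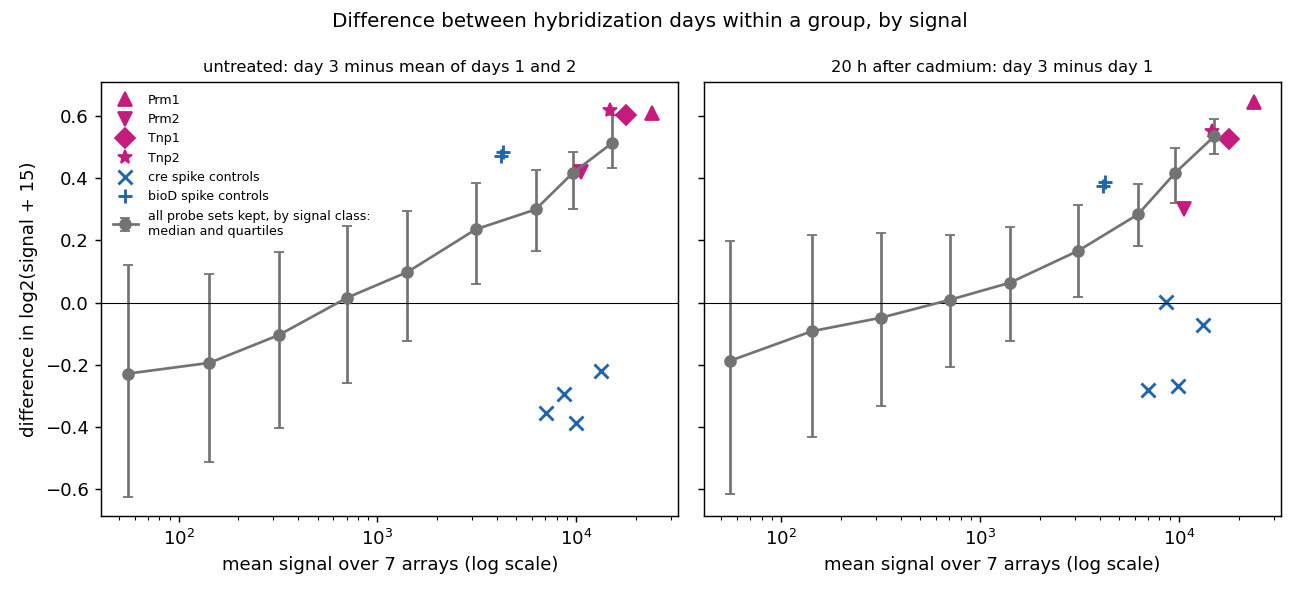
Difference in log2(signal + 15) between hybridization days within the untreated group (left) and the 20 h group (right), against mean signal over the 7 arrays (log scale), with medians and quartiles of signal classes in grey, the 4 genes in pink and spike controls in blue (cre as crosses, bioD as plus signs). The medians go from below 0 for dim probe sets to about 0.5 for the brightest, where the 4 genes lie. The cre controls lie below 0 except for 1 at 0.00087 in the 20 h group, and the bioD controls lie above 0.

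The bright end of the scale was described by hybridization day, because Prm1 and its neighbours lie there. The second-brightest probe set gave 14755 to 15429 on the arrays of days 1 and 2 and 21723 to 23592 on those of day 3. Only 1 to 3 probe sets exceeded 15000 on a day 1 or day 2 array and 26 to 36 did on a day 3 array. The ratio of the 20th to the 200th brightest probe set was 1.93 to 2.08 on days 1 and 2 and 2.14 to 2.27 on day 3. The ratio of Prm1 to the second-brightest probe set was 1.14 to 1.34 on days 1 and 2 and 1.20 to 1.30 on day 3. The brightest probe sets did not share 1 value on any array. These values describe the signals and are no test of saturation.

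Spike control probe sets did not share 1 direction. The bacteriophage cre spike, added to the hybridization mix, had 1 probe set at 12072 to 13678 on day 3 arrays and 12917 to 15312 elsewhere, and another at 8217 to 9626 against 10636 to 12513. These differed by -0.22 and -0.39 in untreated testis (log2, day 3 minus the other days) and by -0.07 and -0.27 at 20 h. A second pair of cre probe sets, at mean signals of 8659.8 and 7033, differed by -0.30 and -0.35 in untreated testis and by 0.00087 and -0.28 at 20 h. The bioD spike, dimmer than the 4 genes at mean signals of 4268 and 4175, was higher on day 3, as the 4 genes were, by 0.48 and 0.47 in untreated testis and by 0.39 and 0.38 at 20 h, with every day 3 value above every other array. Day 3 arrays had a median signal of 52.9 to 57.1, and the others one of 63.2 to 72.0. The actin log2 ratio of 3′ to 5′ probe sets, a measure of RNA or target length, ran from 1.19 to 1.42 among day 3 arrays and from 0.73 to 0.99 among the rest. The table holds no scanner pixel values or saturation marks, so saturation was not tested, and the part of day, target length and scaling in the level of the 4 genes was not tested.

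**Figure D3:**
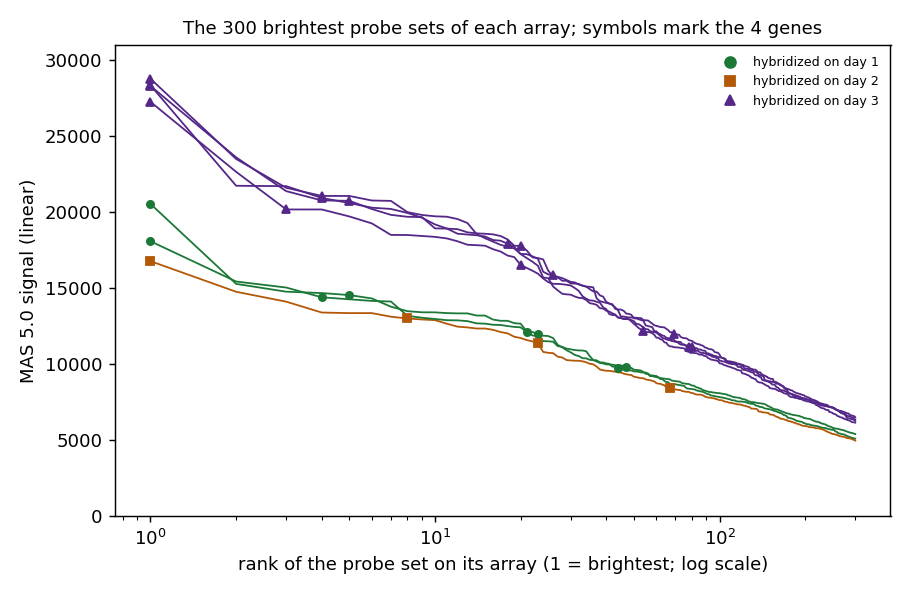
Signal of the 300 brightest probe sets of each array (linear) against rank (log scale), coloured by hybridization day, with symbols marking the 4 genes. The curves of the 4 day 3 arrays lie together above those of days 1 and 2, and Prm1 is at rank 1 on all 7.

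Cadmium at 8 h was compared with untreated testis to ask whether spermatid nuclear protein mRNAs changed early after the dose. The 4 genes had a higher mean at 8 h than in untreated testis when day was left out, by 11.1% for Prm2 up to 31.0% for Prm1, and lower values, from -1.54% to -9.25%, with the day as a block in the fit. None of these differences passed the test. In bulk tissue a loss of spermatids and less mRNA per spermatid cannot be told apart.

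Over all arrays, limma gave log2 fold changes at 8 h of 0.39 ± 0.24 (SE) for Prm1, 0.15 ± 0.17 for Prm2, 0.38 ± 0.22 for Tnp1 and 0.27 ± 0.22 for Tnp2, with limma adjusted p-values from 0.836 to 0.878. Their median was 0.32, beside -0.08 for all 20857 probe sets. The 16 probe sets nearest the 4 genes in brightness also had a median of 0.32 in this fit, so the value is not particular to these genes. A mean above untreated was found in 4 of the 4 genes and in 39% of the probe sets, but 0 of the 4 had both 8 h arrays above all untreated arrays, against 7.59% of the probe sets, and 0 had both below all untreated arrays, against 15.4%. None of the 20857 passed (0%) at an adjusted p of 0.05, and 1088 had an unadjusted p under 0.05.

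With hybridization day as a block, the direction turned in all 4. The 8 h log2 fold change was -0.06 for Prm1 (95% interval -0.21 to 0.09), -0.13 for Prm2 (-0.28 to 0.02), -0.02 for Tnp1 (-0.16 to 0.11) and -0.14 for Tnp2 (-0.28 to 0.0025). As percentages these are -4.25% for Prm1 (-13.7 to 6.23), -8.45% for Prm2 (-17.5 to 1.53), -1.54% for Tnp1 (-10.4 to 8.21) and -9.25% for Tnp2 (-17.8 to 0.17). A negative value with the day block was found in 4 of the 4 genes and in 53.3% of all probe sets. The median of the 4 genes was -0.095, beside -0.0098 for the 16 probe sets nearest in brightness. The 4 genes were read on the same arrays and varied together, so their shared sign is not 4 separate observations. The limma adjusted p-values were 0.807 to 0.970, and 0% of the probe sets passed (1275 had an unadjusted p under 0.05). Untreated replicate 2, alone on its day, adds nothing to this fit, and the lowest bound of the 4 intervals was -17.8%.

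The day 3 arrays allow a direct look, with 1 untreated array beside 2 treated at 8 h. On 8 h replicate 1 the log2 difference from untreated replicate 3 was 0.02 for Prm1, -0.13 for Prm2, 0.01 for Tnp1 and -0.18 for Tnp2. On 8 h replicate 2 it was -0.06, -0.13, -0.05 and -0.12 in that order. As percentages these were -8.46% and -8.75% for Prm2 and -11.6% and -7.81% for Tnp2, while Prm1 had 1.52% and -3.84%. Prm2 and Tnp2 lay below the untreated array on both 8 h arrays, which 36.2% of the probe sets also did. The 5 brightness neighbours had medians of 0.03 and 0.15 beside Prm2 and of 0.08 and -0.04 beside Tnp2. In limma on the 4 day 3 arrays alone, where 1 residual degree of freedom comes from the 8 h pair and single arrays are assumed to vary like it, the 8 h values were -0.017 for Prm1, -0.13 for Prm2, -0.022 for Tnp1 and -0.15 for Tnp2 (95% interval -0.31 to 0.017), with limma adjusted p-values from 0.641 to 0.962.

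At 20 h the question was whether the genes had changed by the later time, and the same untreated arrays were used as at 8 h. The 4 genes again had a higher mean when day was left out, by 5.83% for Prm1 up to 9.23% for Tnp1, and with the day block values of -1.16% for Prm2, -0.95% for Tnp1, 0.23% for Tnp2 and -6.23% for Prm1. None passed the test. The log2 fold changes were 0.08 ± 0.24 (SE) for Prm1, 0.11 ± 0.17 for Prm2, 0.13 ± 0.22 for Tnp1 and 0.12 ± 0.22 for Tnp2, each with a limma adjusted p of 0.999. Their median was 0.12, against -0.05 for all probe sets and 0.13 for the 16 nearest in brightness. A higher mean was found in 4 of 4 genes and 41.2% of probe sets, and both 20 h arrays above all untreated arrays in 0 of 4 and 4.65%. Both 20 h arrays below all untreated arrays were found in 0 of 4 and 10.7%. None of the 20857 passed (0%), and 648 had an unadjusted p under 0.05. When 20 h replicate 2, hybridized on day 3, was left out, the values were -0.24, -0.04, -0.14 and -0.15 in the order Prm1, Prm2, Tnp1, Tnp2.

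With the day block the 20 h values were -0.09 for Prm1 (95% interval -0.23 to 0.04), -0.02 for Prm2 (-0.15 to 0.12), -0.01 for Tnp1 (-0.14 to 0.11) and 0.0034 for Tnp2 (-0.12 to 0.13), with limma adjusted p-values from 0.866 to 0.995. Again 0% of the probe sets passed, and 1197 had an unadjusted p under 0.05. Of the 4 genes, 3 were below untreated, as were 56.3% of probe sets. On day 3, 20 h replicate 2 differed from untreated replicate 3 by -0.14% for Prm1, -1.47% for Prm2, -0.90% for Tnp1 and -0.78% for Tnp2. On day 1, 20 h replicate 1 differed from untreated replicate 1 by -12.0% for Prm1, -0.84% for Prm2, -1.01% for Tnp1 and 1.26% for Tnp2. Prm1 was thus level with its untreated array on one day and below it on the other, and the other 3 genes lay between -1.47% and 1.26% on both. Prm2 and Tnp2 were below untreated replicate 3 on all 3 treated arrays of day 3, as were 30.2% of probe sets.

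**Figure D4:**
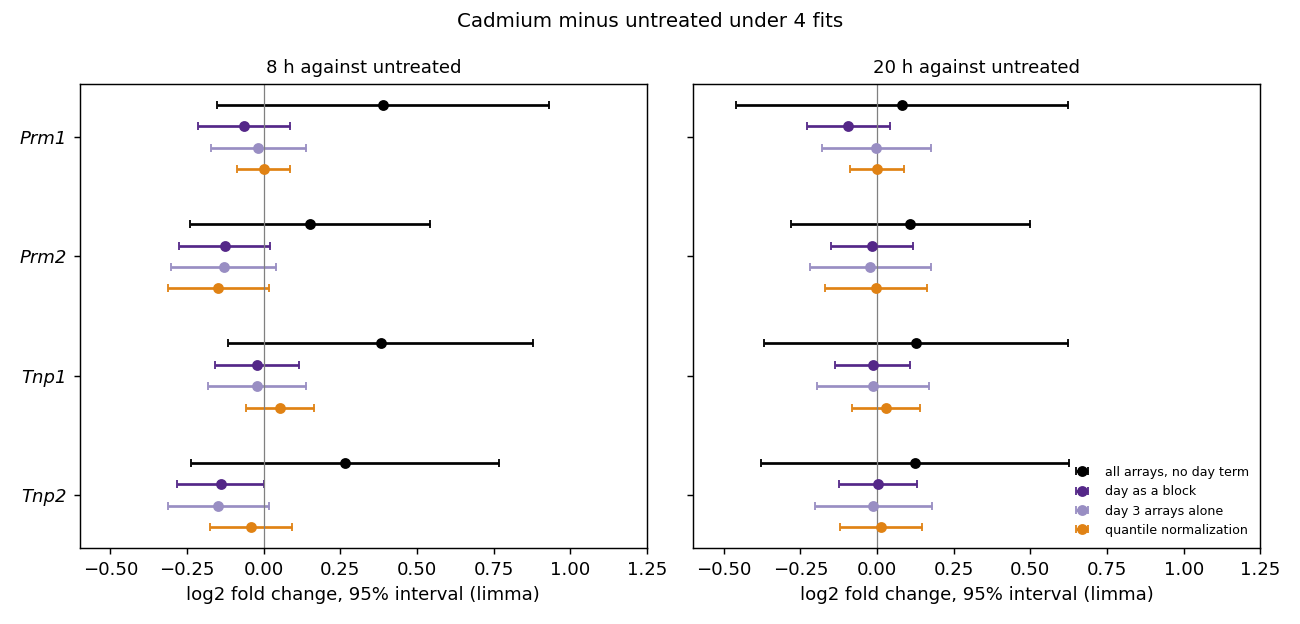
Log2 fold change with 95% interval for each gene at 8 h (left) and 20 h (right) against untreated, from limma without a day term (black), with day as a block (dark purple), on the day 3 arrays alone (light purple) and after quantile normalization (orange). The black points lie to the right of 0 with wide intervals, the purple points within 0.15 of 0; Prm1 is fixed at 0 after quantile normalization because it is the brightest probe set on every array.

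Between the times, the values at 20 h were below those at 8 h without the day term, with log2 differences of -0.31 ± 0.26 (SE) for Prm1, -0.04 ± 0.19 for Prm2, -0.25 ± 0.24 for Tnp1 and -0.14 ± 0.25 for Tnp2 (limma adjusted p = 1.00 for each). With the day block they were -0.03, 0.11, 0.01 and 0.14. For Tnp2 the interval was 0.00085 to 0.29, with an unadjusted p of 0.0489 and a limma adjusted p of 1.00. None of the 20857 probe sets passed in either fit (0%; 401 and 656 had an unadjusted p under 0.05). In the F test over the 3 groups the limma adjusted p was 0.990 for each gene.

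Pooling both times, the cadmium arrays differed from untreated by 0.24 ± 0.20 (SE) for Prm1, 0.13 ± 0.15 for Prm2, 0.25 ± 0.19 for Tnp1 and 0.19 ± 0.19 for Tnp2 (limma adjusted p from 0.855 to 0.873). With the day block the values were -0.08, -0.07, -0.02 and -0.07 in that order (limma adjusted p from 0.782 to 0.950). The lower bounds of those intervals were -12.9%, -12.5%, -8.49% and -11.9% as percentages. The probe sets passing numbered 0 of 20857 in both fits (0%), with 1022 and 1508 at an unadjusted p under 0.05.

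The ratios between members bear on unequal change inside one array, which a common scaling cannot alter. Prm1 relative to Prm2, the pair that packs mature sperm DNA, differed from the untreated array of its day by a log2 change of 0.15 and 0.08 on the 8 h arrays, 0.02 on 20 h replicate 2 and -0.17 on 20 h replicate 1. Tnp1 relative to Tnp2 changed by 0.19, 0.06, -0.0017 and -0.03 on those arrays. Without treatment the Prm1 to Prm2 ratio differed by 0.15 between days 3 and 1 and by 0.22 between days 3 and 2, beside treated changes of at most 0.15 and -0.17. The Tnp1 to Tnp2 ratio differed by -0.06 and 0.03 between the same days.

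The members' patterns over the 7 arrays were alike, with Pearson r of log2 signal from 0.94 to 0.99 for the 6 pairs. These are descriptions of 7 arrays that share hybridization days and treatments. The most alike genes on the array were Tdrd7 (r = 0.993), COX2 (0.991) and Utp4 (0.990) for Prm1, and Clcn3 (0.989), P3h1 (0.988) and Cct3 (0.983) for Prm2. For Tnp1 they were COX2 (0.998), Gpx4 (0.997) and Trim33 (0.994), and for Tnp2 Cfap276 (0.998), Psma6 (0.994) and Kiaa1958 (0.994). For the mean of the 4 they were Ube2j1 (0.996), Oaz3 (0.994) and Wdr53 (0.993). Of the 15823 other probe sets of 1 gene, an r above 0.9 was found for 490 (3.10%) with Prm1 and 386 (2.44%) with Prm2. It was found for 657 (4.15%) with Tnp1 and 710 (4.49%) with Tnp2. All the genes named here as most alike had a positive day 3 minus day 1 difference, between 0.31 and 0.82. The median over all 20857 probe sets was -0.10. The named genes were picked on these arrays by likeness to genes that were higher on day 3. Their sign thus follows largely from the choice and is no separate result.

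Genes that act on the protamine and transition protein mRNAs or share their chromatin were examined next, from lists of known genes. Sperm chromatin partners numbered 13 measured of 17, and 0 passed in any comparison. At 8 h their median log2 fold change was 0.05 without the day term and 0.02 with it, and at 20 h 0.03 and 0.02. Hils1, a linker histone of spermatids, gave 13584 to 15080.3 on the 4 day 3 arrays and 9102 to 10104 on the other 3, a log2 day difference of 0.56 (limma adjusted p = 0.00175). Prm3, the third gene of the protamine cluster, gave 7164, 6819.8 and 7710.3 untreated, 8049 and 7789.8 at 8 h and 7239.9 and 8136 at 20 h. Its log2 day difference was 0.14 (limma adjusted p = 0.222). In the mean of both times without the day term, Nasp, a histone chaperone, had the highest value in this list (0.30 ± 0.13 SE) beside Hils1 (0.26 ± 0.19), and Epc1, a subunit of a histone acetyltransferase complex (-0.41 ± 0.20), and H2ax, the histone that marks DNA breaks (-0.36 ± 0.15), the lowest. None of these passed (limma adjusted p = 0.855 for each). The day-block values were 0.15 for Nasp, -0.0077 for Hils1, -0.22 for Epc1 and -0.23 for H2ax, none of which passed (limma adjusted p from 0.703 to 0.982).

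The spermatid transcription regulators were measured for 7 of 12 genes, 0 of which passed. Their medians were 0.14 at 8 h and 0.11 at 20 h, and 0.11 and 0.06 with the day block. CREM, the activator of the haploid program, had its brightest probe set at 2034, 1999 and 2383 on the untreated arrays, 3049 and 2623 at 8 h and 2106 and 2510 at 20 h. Both 8 h arrays lay above all untreated ones, which held for 7.59% of all probe sets. Its 8 h log2 fold change was 0.41 ± 0.15 (SE), and 0.24 ± 0.11 with the day block (limma adjusted p = 0.836 and 0.807). Of 6 Crem probe sets 5 were kept, all with a positive 8 h value in both fits, and 2 of them had both 8 h arrays above all untreated ones. Without the day term their values ran from 0.0096 ± 0.39 (SE), on a dim probe set with a mean signal of 56.1, to 0.44 ± 0.30. In that fit 39% of all probe sets were positive. Over both times without the day term, Rfx2, another transcription factor of spermatid differentiation, was at 0.18, with Camk4, a kinase of spermatids, at 0.06 and Kdm3a, a histone demethylase needed for Tnp1 and Prm1 transcription, lowest at -0.04. Rfx2 was at 0.087, Camk4 at 0.056 and Kdm3a at 0.029 with the day block.

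Genes of mRNA storage and translation were measured for 10 of 15 and 0 passed. Medians were 0.21 at 8 h and 0.10 at 20 h without the day term, and -0.02 and 0.02 with it. YBX2 and YBX3 are Y-box proteins that bind stored spermatid mRNAs, protamine mRNA included. Ybx2 gave 9872, 8747 and 7626 untreated, 10531 and 10363 at 8 h and 9493 and 9178 at 20 h, and Ybx3 gave 7454, 7355 and 7419.6 untreated, 10378 and 9479.8 at 8 h and 7862 and 8813 at 20 h. Every 8 h value of both genes was above all untreated values, which held for 7.59% of all probe sets. For Ybx3 so was every 20 h value, which held for 4.65% of all probe sets. With the day block the 8 h log2 fold changes were 0.37 ± 0.09 (SE) and 0.38 ± 0.08 (limma adjusted p = 0.697 and 0.691), and the day differences were -0.21 for Ybx2 and 0.08 for Ybx3. On the same day arrays Ybx2 differed from untreated by 0.46, 0.44, 0.27 and -0.06 and Ybx3 by 0.48, 0.35, 0.25 and 0.08, for the 8 h replicates, 20 h replicate 2 and 20 h replicate 1. Over both times without the day term, Ddx25, a helicase for spermatid mRNA export, stood at 0.23, Tsnax, a partner of the RNA-binding protein translin, at -0.17 and Tarbp2, which binds double-stranded RNA, at -0.12. With the day block Ddx25 was at 0.017, Tsnax at -0.095 and Tarbp2 at -0.17, and the log2 day difference of Ddx25 was 0.57 (limma adjusted p = 0.00697).

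**Figure D5:**
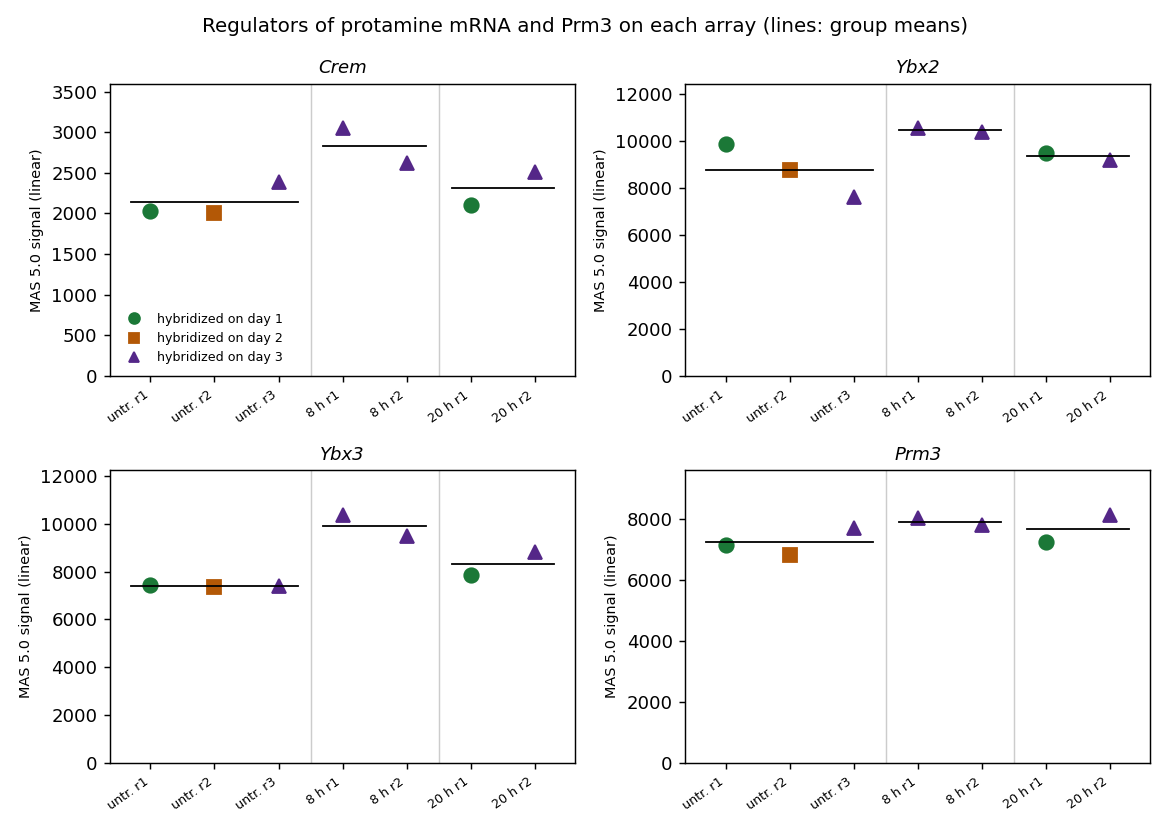
Signal of Crem, Ybx2, Ybx3 and Prm3 on each array (linear scale from 0), with symbols for hybridization day and lines for group means. The 8 h arrays lie above all untreated arrays for Crem, Ybx2, Ybx3 and Prm3, as they do for 7.59% of all probe sets. The day 3 untreated array is not raised for Ybx2 or Ybx3.

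Other spermatid mRNAs, measured for 20 of 30 genes, were read as a group for comparison. Without the day term 19 of 20 had a positive 8 h fold change, against 39% of all probe sets, and the list's median was 0.30. With the day block 10 had a positive and 10 a negative one, and the list's median was 0.0020. In that fit 53.3% of all probe sets were negative. Of the 20 genes, 0 passed in either fit. The summed signal of the list was 216477 to 227764 on day 3 arrays and 156354 to 165377 on the others. Of the 20 genes, 15 were called higher on day 3 (median day difference 0.42), against 4.08% of all probe sets. Many genes of this list are bright, and the day term called 58 of the 60 probe sets at least as bright as Prm2. The count is thus not particular to spermatid genes. Odf1, a protein of the outer dense fibres of the sperm tail, Smcp, of the mitochondrial capsule, and Akap4, of the fibrous sheath, had day-block 8 h values of -0.11, -0.02 and 0.0052.

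Markers of the other testicular cells were read beside these values, and 0 of the markers passed at either time. Spermatocyte markers (8 of 12 measured) had 8 h medians of 0.10 without and 0.19 with the day term and 20 h medians of 0.15 and 0.11. The 4 spermatogonial markers kept had 0.0037 and -0.02 at 8 h and -0.24 and -0.15 at 20 h. Sertoli cell markers (9 of 12) had -0.17 and -0.08 at 8 h and -0.14 and -0.06 at 20 h, and peritubular myoid markers (4 of 4) -0.04 and 0.04, then 0.15 and 0.23. Leydig cell markers (7 of 7) had 0.26 and -0.36 at 8 h and -0.62 and -0.64 at 20 h, with sums of 5942.5 to 8207 untreated, 7126 to 11047.5 at 8 h and 2526 to 7326 at 20 h. Endothelial markers (5 of 7 kept) had -0.86 and -1.10 at 8 h and -0.88 and -0.87 at 20 h. Without the day term 0 of 5 were higher at either time, against 39% of all probe sets at 8 h and 41.2% at 20 h. Their summed signals were 522 to 540.0 untreated, 206.5 to 434.9 at 8 h and 142.9 to 502.9 at 20 h. Macrophage markers (7 of 7) had 0.16 and 0.10, then 0.09 and 0.11, and blood cell markers (3 of 7 kept) -0.02 and -0.13, then -0.06 and -0.05. None of the listed probe sets read 0 on any array, and the part of these cell types in the values of the 4 genes was not tested.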

How the data were processed

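The samples were whole testes of 7 rats, grouped by their titles into 3 untreated, 2 at 8 h and 2 at 20 h, which the labels call biological replicates. Their number limits the precision, and no counting depth applies to arrays. The deposited values are signal intensities on a linear scale; the authors used MAS 5.0 and GeneSpring 7.2, per the labels' design text and the submitters' processing notes (MAS5). The instrument files hold settings and dates of other kinds and no measured signals, per the file headers, and were read for the hybridization day, staining and washing. No normalization was added. Signals were analysed as log2(signal + 15), and a probe set stayed in if it exceeded the 40th percentile of 2 or more arrays (20857 of 31042, without 57 control probe sets).

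One model held the 3 groups, in limma 3.58.1 (R 4.3.3; lmFit, eBayes with an intensity trend), with Benjamini-Hochberg adjustment over all kept probe sets and a threshold of 0.05; fold changes are on the log2(signal + 15) scale. The fit with hybridization day as a block has 2 residual degrees of freedom against 4 without it. Same-day differences of single arrays are descriptions; the fit on day 3 arrays alone tests them with 1 residual degree of freedom. Alternatives were other pseudocounts, filters and normalizations, no intensity trend, day or replicate number as a block, day 3 arrays alone and each array left out. The script was tested on simulated data. Probe sets were taken by the platform annotation, 1 per gene, and for genes with several the brightest. Named genes were the 4 members; in the lists of chromatin partners, regulators and mRNA storage the 2 highest and 2 lowest in the mean of both times; Prm3, Crem, Ybx2, Odf1, Smcp and Akap4; and the 3 genes most alike in pattern. Ybx3 and Hils1 values by array were chosen after they were seen. The members and lists were chosen with earlier results of these data known.

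Replicate numbers are shared by the groups. The correlations of their deviations were -0.0014, 0.09 and 0.14, so the numbers were not taken to pair the animals.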

Additional observations from a re-analysis of the deposited data

How the results depend on the processing

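No gene of the 4 reached an adjusted p of 0.05 in limma under any setting; the lowest was 0.196 (Tnp1 at 8 h). The day block turned the sign for Prm1 (8 h -0.063, 20 h -0.093, mean -0.078), Prm2 (8 h -0.13, 20 h -0.017, between times 0.11, mean -0.072), Tnp1 (8 h -0.022, 20 h -0.014, between times 0.0086, mean -0.018) and Tnp2 (8 h -0.14, between times 0.14, mean -0.068). On day 3 arrays alone it turned for Prm1 (8 h -0.017, 20 h -0.0021, between times 0.015, mean -0.0097), Prm2 (8 h -0.13, 20 h -0.021, between times 0.11, mean -0.076), Tnp1 (8 h -0.022, 20 h -0.013, between times 0.009, mean -0.018) and Tnp2 (8 h -0.15, 20 h -0.011, between times 0.14, mean -0.079). After quantile normalization it turned for Prm2 (8 h -0.15, 20 h -0.0041, between times 0.14, mean -0.076) and Tnp2 (8 h -0.041, between times 0.056, mean -0.014). The cause was not tested. The median of the 4 genes at 8 h, 0.32, became -0.021 after quantile normalization, -0.095 with the day block and -0.076 on day 3 alone. Leaving out an array moved it from 0.18 to 0.53 at 8 h, -0.14 to 0.40 at 20 h, -0.47 to 0.06 between times and 0.07 to 0.42 for the mean. Per gene, the 8 h change ran from 0.21 to 0.59 for Prm1, 0.026 to 0.29 for Prm2, 0.24 to 0.58 for Tnp1 and 0.14 to 0.47 for Tnp2, and the mean from 0.061 to 0.44, 0.0048 to 0.27, 0.11 to 0.46 and 0.057 to 0.40. The lowest came without untreated replicate 2, except for the mean of Tnp2 (without 20 h replicate 2), and the highest without untreated replicate 3. The 20 h change ran from -0.24 to 0.40 for Prm1, -0.043 to 0.26 for Prm2, -0.14 to 0.39 for Tnp1 and -0.15 to 0.40 for Tnp2, and the difference between times from -0.63 to 0.015, -0.19 to 0.11, -0.52 to 0.0090 and -0.42 to 0.14. Without 20 h replicate 2 (day 3) all 4 were negative at 20 h, without untreated replicate 2 those of Prm1, Prm2 and Tnp1 were, and without 20 h replicate 1 all 4 were positive between times. Probe sets passing, 0 with all arrays, numbered 8 at 8 h, 2 at 20 h and 10 for the mean on day 3 alone, and leaving out an array gave 0 to 1 at 8 h, 0 to 8 at 20 h (8 without 20 h replicate 2), 0 to 1 between times and 0 to 1 for the mean; none was a member. On day 3 alone and without 1 array of a pair, a group of 1 array was assumed to vary like the others. With the replicate number as a block, which was not taken to pair the animals, the 8 h values were 0.59, 0.29, 0.58 and 0.47 and the 20 h values 0.28, 0.25, 0.33 and 0.33, and 0 probe sets passed. The mean of all probe sets of a gene gave no other value, since each gene has 1.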
